A study of Bos taurus with 10 samples.

Results

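The genes described here are those of the circadian clock, measured in intramuscular and subcutaneous fat of cattle (Bos taurus). They were chosen by symbol, from a list of 10 genes: the activators ARNTL (also called BMAL1) and CLOCK, the repressors PER1, PER2, PER3, CRY1 and CRY2, the REV-ERB receptors NR1D1 and NR1D2, and the output factor DBP. Of the 10, 9 had a row in the table of 12674 genes, and all 9 passed the filter on low counts that left 12521 genes for testing. PER3 was not analysed here. RNA was sequenced from intramuscular fat, the marbling fat between muscle fibres (5 libraries), and from subcutaneous fat, the fat under the skin (5 libraries), of 5 adult Angus-cross heifers. The labels name no treatment, and the series asks why marbling fat is laid down later and more slowly than fat under the skin. Libraries with the same replicate number were treated as a pair from 1 heifer, which gave 5 pairs. The hour at which each heifer was sampled is not given in the sources used here.

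The clock of a mammalian cell is a feedback loop of transcription. ARNTL pairs with CLOCK, or with its relative NPAS2, and switches on the PER, CRY and NR1D genes and DBP, and PER and CRY proteins then return to the nucleus and block that pair. NR1D1 and NR1D2 repress ARNTL and CRY1, which RORA activates, and DBP drives further output genes. In adipose tissue this loop gives daily rhythms to lipid storage and release, and the level of a rhythmic transcript depends on the hour of sampling.

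In intramuscular fat CRY1 and NR1D2 were higher than in subcutaneous fat, by 2.07-fold and 2.74-fold, and the other 7 clock genes did not pass the test. At an adjusted p under 0.05, 2 of 9 clock genes passed as higher and 0 as lower, where 6.75% of all genes tested were higher and 5.49% lower (12.2% in either direction). Differences were tested with the quasi-likelihood test of edgeR, with depot as the only term, so the main test did not use the pairing. The p-values were adjusted over all genes by the Benjamini-Hochberg method. A further fit had the heifer as a block, and its values are named as such. It called 1884 genes in place of 1533. The log2 fold changes (intramuscular over subcutaneous) were positive for 7 of the 9 and negative for CLOCK and DBP, with a median of 0.61 beside -0.04 for all genes. At this threshold 845 genes were higher and 688 lower, and with library totals alone as the scaling these became 1149 and 330. Counts per library over all listed genes ran from 9392739 to 14836808 in intramuscular and from 13776094 to 17685678 in subcutaneous fat. Levels are given as counts relative to the scaled library total (CPM), and the labels do not say whether the libraries of a depot were extracted or sequenced together.

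**Figure D1:**
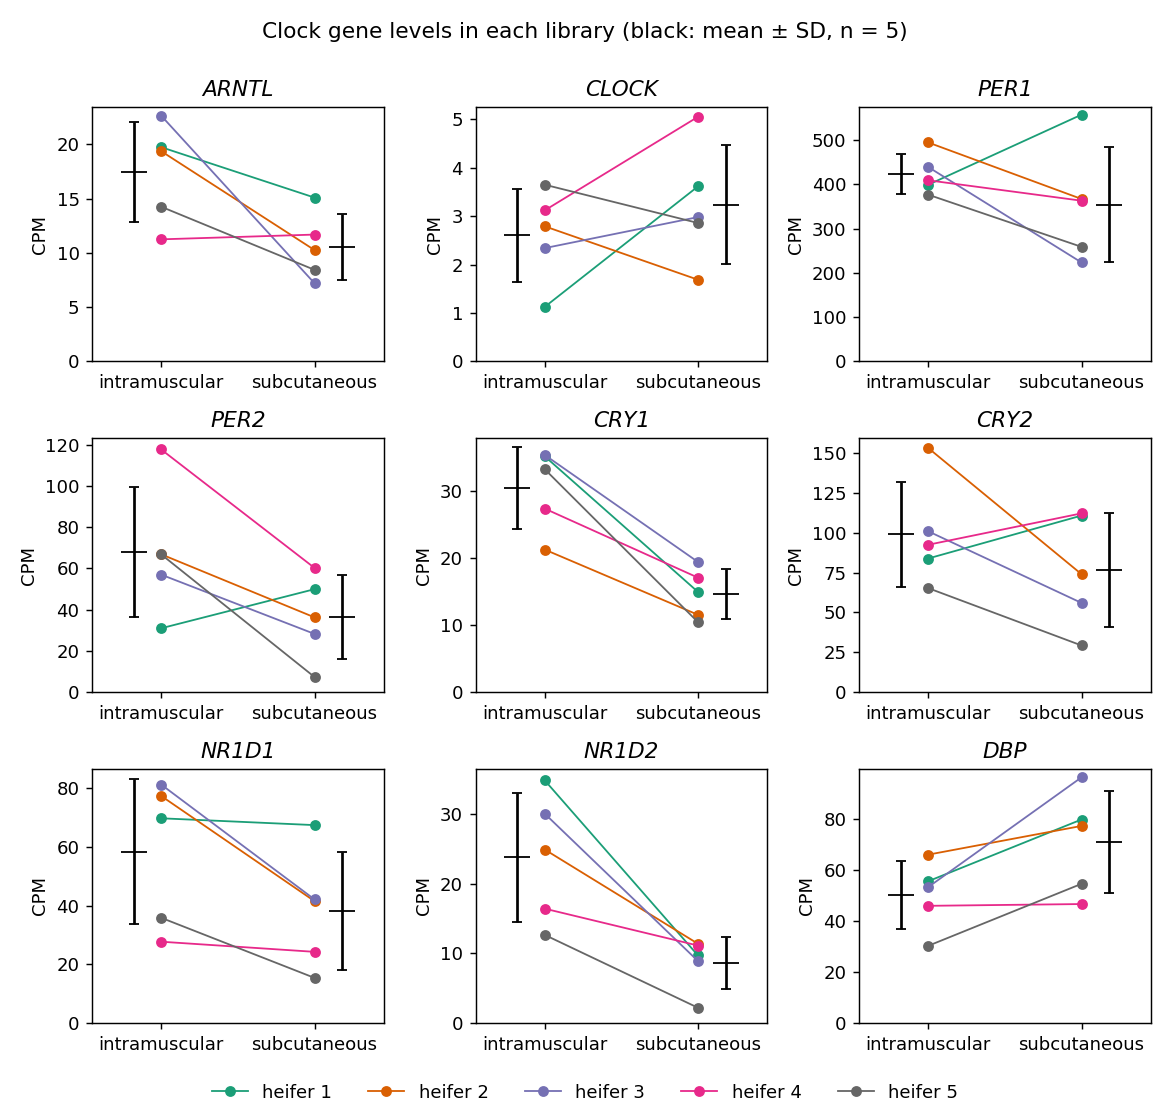
Each panel plots 1 clock gene, with CPM on the vertical axis and the depot on the horizontal axis. Points are libraries, lines join the libraries of 1 heifer, and black marks are the mean ± SD (n = 5). For CRY1 and NR1D2 the 5 intramuscular points all lie above the 5 subcutaneous points, and the lines of DBP all slope the other way.

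Neither activator passed the depot test. ARNTL, the partner in every activating pair (ENSBTAG00000013029, chromosome 15, 39286444 to 39394387), measured 19.8, 19.4, 22.7, 11.3 and 14.3 CPM in intramuscular replicates 1 to 5, against 15.1, 10.3, 7.20, 11.7 and 8.44 CPM in subcutaneous replicates 1 to 5. It was higher in intramuscular fat in 4 of 5 pairs, heifer 4 being the exception, and the depots overlapped. Its log2 fold change was 0.73 ± 0.26 (± SE), with an edgeR adjusted p of 0.0804, and 0.0393 without subcutaneous replicate 1. The authors' deposited table, made with DESeq2, gives ARNTL an adjusted p of 0.0408, which puts 3 of the 9 clock genes under 0.05, where 20% of all its genes are. The category column of the authors' deposited table marks CRY1 and NR1D2 as upregulated and ARNTL as not significant. CLOCK, the DNA-binding partner of ARNTL (chromosome 6, 70874084 to 70978580), was counted only 12 to 86 times in a library. It measured 2.60 ± 0.956 CPM in intramuscular and 3.24 ± 1.23 CPM in subcutaneous fat (SD, n = 5; log2 fold change -0.31 ± 0.42, edgeR adjusted p = 0.647). An interval of 2 SE on each side of its log2 fold change ran from -1.15 to 0.52.

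Among the repressors CRY1 separated the depots, while CRY2, PER1 and PER2 did not. CRY1, a cryptochrome that blocks the activating pair (ENSBTAG00000010149, chromosome 5, 70260351 to 70355222), measured 35.1, 21.2, 35.3, 27.3 and 33.2 CPM in intramuscular replicates 1 to 5. In subcutaneous replicates 1 to 5 it measured 14.9, 11.5, 19.4, 17.0 and 10.4 CPM. The lowest intramuscular library lay above the highest subcutaneous one, as it did for 7.85% of all genes tested, and no clock gene lay the other way round (0 of 9, beside 5.04% of all genes). CRY1 rose by 1.05 ± 0.22 on the log2 scale (± SE, edgeR adjusted p = 0.00994), was higher in 5 of 5 pairs by 0.68 to 1.66, and passed in each of the 10 fits that left out 1 library. Without both intramuscular replicates 1 and 3 its log2 fold change was 0.89 (edgeR adjusted p = 0.0963).

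CRY2, the second cryptochrome (chromosome 15, 75879778 to 75915413), measured 99.1 ± 33.0 CPM in intramuscular and 76.4 ± 35.7 CPM in subcutaneous fat (SD, n = 5) and was higher in 3 of 5 pairs. Its log2 fold change of 0.37 ± 0.33 had an edgeR adjusted p of 0.467. PER1, a period gene that also responds at once to cyclic AMP and glucocorticoids (chromosome 19, 27778418 to 27788197), was the most abundant of the 9 in CPM. It measured 399, 495, 439, 409 and 377 CPM in intramuscular replicates 1 to 5, against 558, 367, 223, 363 and 259 CPM in subcutaneous replicates 1 to 5. The subcutaneous values spread on both sides of the intramuscular ones, with an SD of 45.6 CPM in intramuscular and 130 CPM in subcutaneous fat, and the log2 fold change was 0.26 ± 0.23 (edgeR adjusted p = 0.467).

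PER2, its relative in the same repressor complex (chromosome 3, 117558885 to 117599971), ranged more widely. It measured 31.0, 66.9, 57.0, 118 and 66.8 CPM in intramuscular replicates 1 to 5, against 49.95, 36.3, 28.2, 60.3 and 7.35 CPM in subcutaneous replicates 1 to 5. Heifer 4 had the highest value of each depot. The difference within a heifer ran from -0.69 in heifer 1 to 3.16 in heifer 5 (log2 CPM). Its log2 fold change of 0.90 ± 0.45 had an edgeR adjusted p of 0.195.

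Of the REV-ERB receptors, which are heme-binding repressors of ARNTL, NR1D2 (ENSBTAG00000018024, chromosome 27, 41987493 to 42013751) rose in intramuscular fat. It measured 34.8, 24.9, 30.0, 16.4 and 12.6 CPM in intramuscular replicates 1 to 5, against 9.68, 11.4, 8.88, 11.1 and 2.18 CPM in subcutaneous replicates 1 to 5. The depots did not overlap, though intramuscular replicate 5 and subcutaneous replicate 2 lay close, and subcutaneous replicate 5 stood far below the rest. The log2 fold change was 1.46 ± 0.40 (± SE, edgeR adjusted p = 0.0328), and it was positive in 5 of 5 pairs, from 0.56 to 2.46. This call was lost without intramuscular replicate 1, 2 or 3 or subcutaneous replicate 3 (edgeR adjusted p = 0.0780, 0.0635, 0.0833 and 0.0655). Without both intramuscular replicates 1 and 3 the log2 fold change was 1.06 (edgeR adjusted p = 0.227).

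NR1D1 (ENSBTAG00000012178, chromosome 19, 40389125 to 40397513) varied widely among heifers in both depots. It measured 69.8, 77.5, 81.3, 27.7 and 35.9 CPM in intramuscular replicates 1 to 5, against 67.5, 41.6, 42.2, 24.3 and 15.4 CPM in subcutaneous replicates 1 to 5. Heifers 4 and 5 had the lowest values of both depots. The intramuscular library was the higher one in 5 of 5 pairs, by only 0.05 in heifer 1 and by 1.22 in heifer 5 (log2 CPM). Its log2 fold change of 0.61 ± 0.39 had an edgeR adjusted p of 0.300, and 0.0563 with the heifer as a block. On the opposite strand THRA, the thyroid hormone receptor alpha gene, overlaps 2132 bases of the 8389 that NR1D1 spans. As the strand setting of the counting is not given, reads in that stretch may have been assigned to either gene or dropped. THRA itself measured 128 ± 36.0 CPM in intramuscular and 90.9 ± 12.1 CPM in subcutaneous fat (log2 fold change 0.49 ± 0.19, edgeR adjusted p = 0.0957). In heifers 4 and 5 it measured 112 and 107 CPM in intramuscular and 77.7 and 94.4 CPM in subcutaneous fat. Its lowest intramuscular library was that of heifer 5, and its lowest subcutaneous library that of heifer 4. The part of shared reads in the NR1D1 values was not tested.

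DBP, a PAR bZIP factor whose transcription is a direct readout of the activating pair (ENSBTAG00000006754, chromosome 18, 55272313 to 55278976), was the clock gene with values below the subcutaneous ones in every pair. It measured 55.5, 65.9, 53.2, 45.9 and 30.2 CPM in intramuscular replicates 1 to 5, against 79.7, 77.2, 96.2, 46.6 and 54.5 CPM in subcutaneous replicates 1 to 5. The depots overlapped, since subcutaneous replicate 4 was low. The differences within a heifer ran from -0.85 to -0.02 (log2 CPM), and the log2 fold change of -0.50 ± 0.24 had an edgeR adjusted p of 0.172 (0.0772 with the heifer as a block). The gene CA11 overlaps 369 of its bases on the same strand and measured 4.80 ± 2.35 CPM in intramuscular and 2.99 ± 1.49 CPM in subcutaneous fat.

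**Figure D2:**
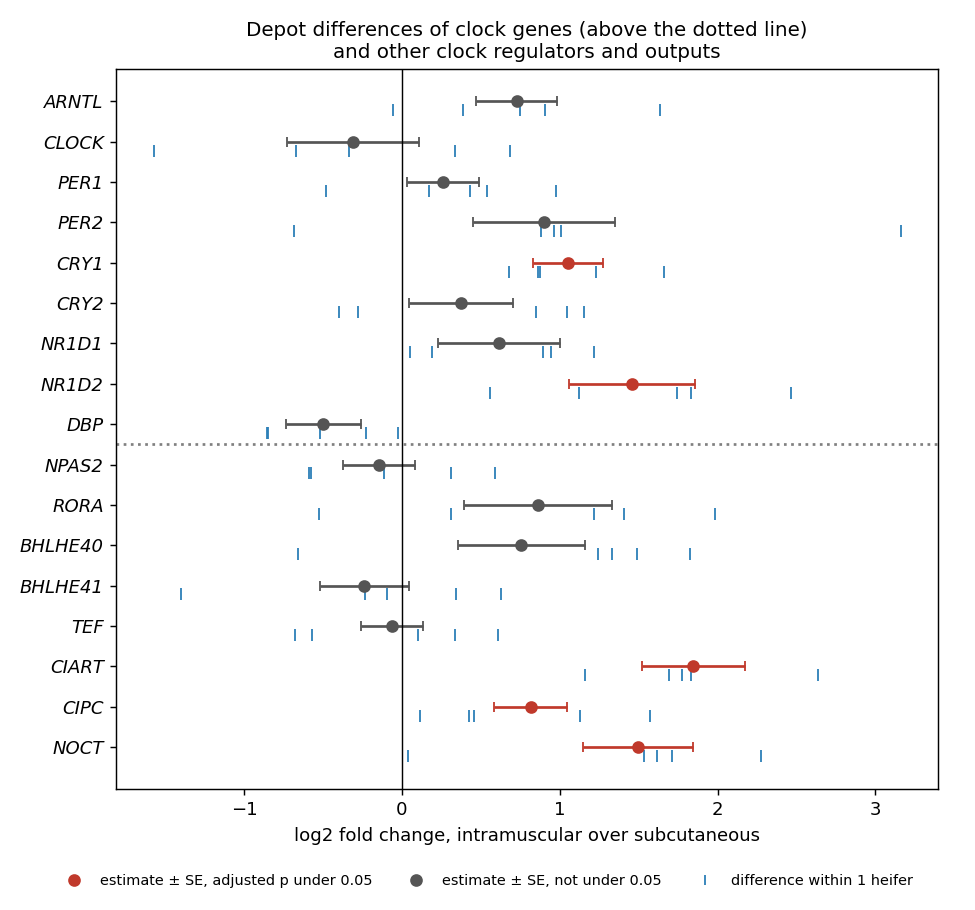
The horizontal axis is the log2 fold change, intramuscular over subcutaneous. Dots are the edgeR estimates ± SE over 5 libraries per depot, red where the adjusted p was under 0.05, and blue ticks are the differences within the 5 heifers. CRY1, NR1D2, CIART, CIPC and NOCT lie to the right of 0 in red, and the ticks of DBP all lie to the left of it.

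Compared per length, the clock genes spanned a wide range of levels, and their order was similar in both depots. In CPM per kilobase of deposited gene length (RPKM), PER1 came first at 91.4 ± 9.83 in intramuscular and 76.3 ± 28.1 in subcutaneous fat. CLOCK came last, at 0.706 ± 0.259 RPKM in intramuscular and 0.878 ± 0.334 RPKM in subcutaneous fat, below all other members in all 10 libraries. Between them stood DBP, CRY2, NR1D1, PER2, CRY1, NR1D2 and ARNTL, in this order of mean RPKM in both depots. In intramuscular fat PER1 and DBP, and ARNTL and CLOCK, were the neighbours in this order whose ranges did not overlap, and in subcutaneous fat ARNTL and CLOCK were. NPAS2, which can take the place of CLOCK beside ARNTL, reached 107 ± 5.93 RPKM in intramuscular and 118 ± 41.6 RPKM in subcutaneous fat. Its level per length exceeded that of CLOCK 115- to 334-fold in intramuscular and 54.1- to 221-fold in subcutaneous libraries. NPAS2 did not pass the depot test (log2 fold change -0.15 ± 0.23, edgeR adjusted p = 0.697).

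**Figure D3:**
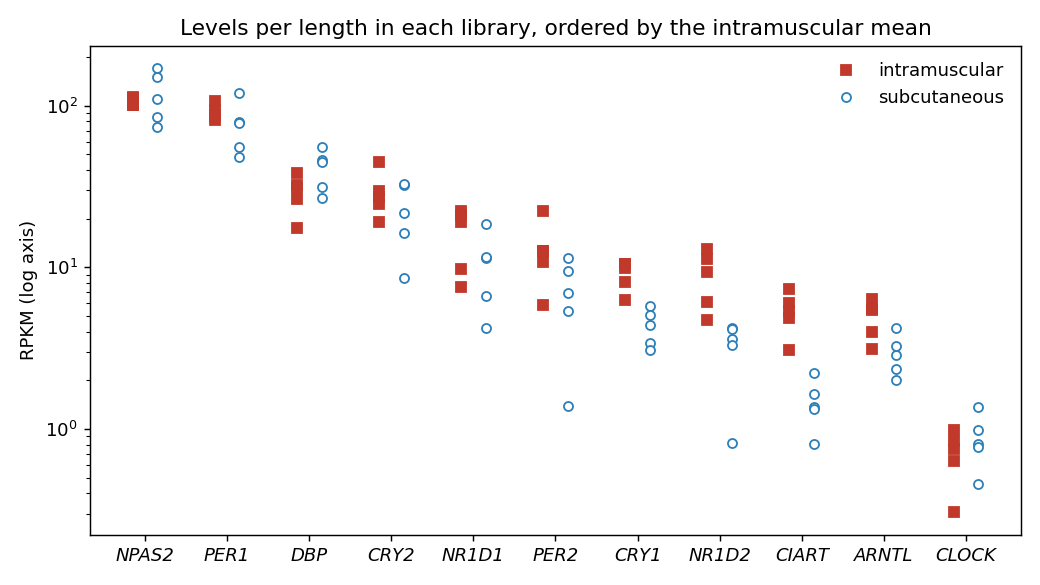
RPKM of the 9 clock genes and of NPAS2 and CIART in each library is plotted on a log axis, with intramuscular libraries as red squares and subcutaneous libraries as open blue circles. NPAS2 and PER1 lie near 100 RPKM and CLOCK near 1, and the depots part for CRY1, NR1D2 and CIART.

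Other genes of the clock were described from lists of transcription factors, kinases with phosphatases and ubiquitin ligases, coregulators and outputs, which hold 59 tested genes. Of these, 7 were higher and 1 lower in intramuscular fat, a share of 13.6% beside 12.2% of all genes tested, with a median log2 fold change of 0.28. Among the 8 tested transcription factors CIART passed. CIART, a repressor of the ARNTL and CLOCK pair (chromosome 3, 20357248 to 20360783), measured 9.83, 6.24, 12.3, 14.9 and 10.9 CPM in intramuscular replicates 1 to 5, against 2.78, 2.71, 3.35, 4.52 and 1.63 CPM in subcutaneous replicates 1 to 5. The depots did not overlap, and the log2 fold change of 1.85 ± 0.33 (edgeR adjusted p = 0.00402) was 1.82 without intramuscular replicates 1 and 3 (edgeR adjusted p = 0.0334).

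RORA, a nuclear receptor that activates ARNTL, had a log2 fold change of 0.86 ± 0.47, at 2.51 CPM in intramuscular and 1.38 CPM in subcutaneous fat on average. The E-box repressors BHLHE40 and BHLHE41 had 0.76 ± 0.40 and -0.24 ± 0.28, and TEF, a relative of DBP, had -0.06 ± 0.20. The edgeR adjusted p of these 4 genes lay between 0.219 and 0.859. BHLHE40 measured 349 CPM in subcutaneous replicate 4, and without that library its log2 fold change was 1.43 (edgeR adjusted p = 0.00293). ARNTL2, RORB, NFIL3 and HLF were not analysed here.

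Of the 17 tested kinases, phosphatases and ligases that set the life span of PER and CRY proteins, 2 were higher and 1 lower, a share of 17.6% beside 12.2% of all genes tested. All 3 encode catalytic subunits of protein phosphatase 1, and they did not move one way. PPP1CB and PPP1CC rose by 1.02 ± 0.19 and 0.81 ± 0.17 on the log2 scale (edgeR adjusted p = 0.00619 and 0.0102). PPP1CA had a log2 fold change of -0.59 ± 0.17 (edgeR adjusted p = 0.0422), a call that 7 of the 10 fits without 1 library lost. PPP1CC and PPP1CA did not pass without intramuscular replicates 1 and 3 (edgeR adjusted p = 0.0921 and 0.217), and PPP1CA had an edgeR adjusted p of 0.0893 with library totals alone.

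Among the 18 coregulators 1 passed, a share of 5.56% beside 12.2% of all genes tested. CIPC, a partner that inhibits CLOCK, measured 55.7 ± 22.01 CPM in intramuscular and 31.6 ± 2.92 CPM in subcutaneous fat (SD, n = 5; edgeR adjusted p = 0.0378). With the heifer as a block its edgeR adjusted p was 0.0546, and without intramuscular replicates 1 and 3 its log2 fold change was 0.40 in place of 0.82. Leaving out 1 library ended its call in 8 of 10 fits. Of 16 tested outputs 3 were higher and 0 lower, a share of 18.8% beside the same 12.2%. NOCT, the deadenylase-like Nocturnin, measured 47.0 ± 22.2 CPM in intramuscular and 16.7 ± 6.55 CPM in subcutaneous fat (log2 fold change 1.496 ± 0.35, edgeR adjusted p = 0.0167). KLF10, a Krüppel-like repressor, measured 173 ± 61.2 CPM and 65.7 ± 13.4 CPM in intramuscular and subcutaneous fat (edgeR adjusted p = 0.0050). The coactivator PPARGC1A, at 6.96 ± 1.68 CPM in intramuscular and 3.26 ± 1.17 CPM in subcutaneous fat, lay at the threshold (edgeR adjusted p = 0.0498). It lost its call in 9 of the 10 fits without 1 library, with an edgeR adjusted p of up to 0.111, and had 0.210 without intramuscular replicates 1 and 3.

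Glucocorticoid response and immediate early genes were described from lists as well. Of 15 glucocorticoid response genes, which include PER1, 1 was higher and 1 lower, a share of 13.3% beside 12.2% of all genes tested, with a median log2 fold change of 0.49. TSC22D3, the leucine zipper GILZ, had a log2 fold change of 0.97 ± 0.26 (edgeR adjusted p = 0.0317) and was lower in intramuscular fat in heifer 1. The lipase inhibitor ANGPTL4 had -1.78 ± 0.47 (edgeR adjusted p = 0.0284). Their calls were lost in 7 and 6 of the 10 fits without 1 library, and both without intramuscular replicates 1 and 3 (edgeR adjusted p = 0.0922 and 0.167). Of 13 immediate early genes 3 were higher and 0 lower, a share of 23.1% beside the same 12.2%, with a median of 0.67. The orphan receptor NR4A2 measured 55.5 ± 19.2 CPM in intramuscular and 10.0 ± 7.63 CPM in subcutaneous fat (edgeR adjusted p = 0.00481) and kept its call in all 10 such fits. EGR3 and NR4A3 had log2 fold changes of 2.74 ± 0.75 and 4.05 ± 1.19 (edgeR adjusted p = 0.0321 and 0.0435), and lost their calls in 5 and 8 of those fits and by limma voom (adjusted p = 0.0688 and 0.0925). The 3 were lowest among intramuscular libraries in heifer 1, at 31.8 CPM for NR4A2, 4.59 CPM for EGR3 and 4.49 CPM for NR4A3.

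Differences between heifers were tested in a model with both heifer and depot. None of the 9 clock genes passed for heifer in edgeR's quasi-likelihood test (0 of 9, and 0 of 9 by limma voom), where 0.136% of all genes did. At an unadjusted p under 0.05 there were 3 of 9, beside 9.10% of all genes tested: NR1D1 (unadjusted p = 0.00226, adjusted p = 0.221), NR1D2 (0.0351, adjusted 0.515) and DBP (0.0383, adjusted 0.517). Without heifer 5 the unadjusted p was 0.720 for NR1D2 and 0.121 for DBP, without heifer 2 it was 0.0566 for DBP, and for NR1D1 it stayed between 0.00164 and 0.00587 with 1 heifer left out. NR1D1 and DBP were lowest in heifers 4 and 5 in both depots, and NR1D2 in intramuscular fat. For NR1D1 the SD of the 5 heifer means was 0.72 and that of the 5 differences within a heifer 0.51 (log2 CPM). For CRY1 these SDs were 0.28 and 0.39, and for PER2 0.69 and 1.37. A difference between depots spreads more than their mean even where heifers do not differ, so these SDs are not on 1 scale. FKBP5, a glucocorticoid-induced cochaperone, and LPIN1, a phosphatidate phosphatase, were picked from the lists after their values were seen because they were high in the same heifers. FKBP5 measured 76.1, 156, 159, 577 and 717 CPM in intramuscular replicates 1 to 5, against 195, 91.0, 74.7, 433 and 406 CPM in subcutaneous replicates 1 to 5. LPIN1 measured 46.8, 23.3, 50.9, 275 and 320 CPM in intramuscular replicates 1 to 5, against 59.3, 18.8, 8.44, 229 and 64.2 CPM in subcutaneous replicates 1 to 5. Their edgeR adjusted p for heifer were 0.191 and 0.167, so neither passed. CDKN1A was also highest in heifers 4 and 5 in both depots, and KLF15 in subcutaneous fat alone. As FKBP5 and LPIN1 were picked for being high there, they are no support for a difference between heifers. Why these genes were high or low in heifers 4 and 5 was not tested.

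**Figure D4:**
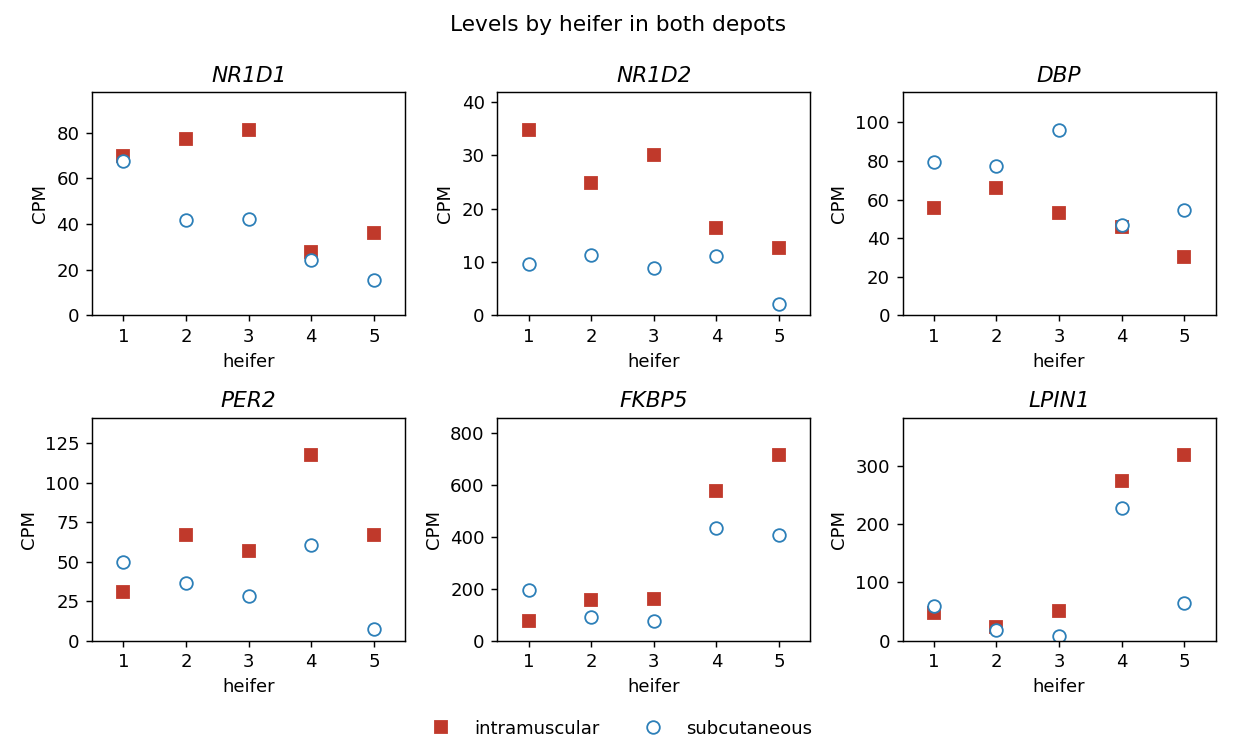
CPM of 6 genes is plotted by heifer, with red squares for intramuscular and open blue circles for subcutaneous fat, 1 library each. NR1D1 is lowest in heifers 4 and 5 in both depots, where FKBP5 and LPIN1, chosen for this pattern, are highest. Within each heifer the intramuscular DBP value lies below the subcutaneous one, though the depots overlap across heifers.

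Markers of cell types also differed between the depots, and in bulk tissue fewer cells of a type and less RNA per cell cannot be told apart. Of 38 striated muscle markers 10 had values, and their sum was 257 to 1431 CPM in intramuscular and 6.76 to 16.4 CPM in subcutaneous fat, where 4 of the 10 were at 0 in every library. The other 28, among them ACTA1, MYH7, TTN and CKM, had no values, so the sum covers only part of the listed muscle genes. Intramuscular replicates 1 and 3 had the highest sums, 1431 and 854 CPM, beside 527, 257 and 375 CPM in replicates 2, 4 and 5. NR1D2 and CIPC were also highest in replicate 1, then 3, then 2, as was PPP1CB (524, 409 and 369 CPM). In replicates 4 and 5 NR1D2 measured 16.4 and 12.6 CPM, the reverse of the order of the muscle sums. CRY1 and CIART did not have the order of replicates 1, 3 and 2. CRY1 was highest in replicates 3 and 1 (35.3 and 35.1 CPM) but lowest in replicate 2 (21.2 CPM). CIART was highest in replicate 4 (14.9 CPM), which had the lowest muscle sum. Without replicates 1 and 3 none of the 9 clock genes passed (0 of 9), and all genes past the threshold numbered 373 instead of 1533. The sum of 13 adipocyte markers (of 15 listed) was 6257 to 23459 CPM in intramuscular and 23144 to 36937 CPM in subcutaneous fat. That of 11 macrophage markers was 188 to 397 CPM in intramuscular and 195 to 1011 CPM in subcutaneous fat. The 10 endothelial markers summed to 1837 to 2368 CPM in intramuscular and 2318 to 4299 CPM in subcutaneous fat. The 6 mural markers (of 8) reached 1031 to 1745 CPM in intramuscular and 600.3 to 978 CPM in subcutaneous fat. Of 13 adipocyte markers 2 passed as lower (15.4%), as did 4 of 11 macrophage (36.4%) and 3 of 10 endothelial markers (30%). Of 6 mural markers 3 passed as higher (50%). Of all genes tested 5.49% were lower and 6.75% higher, 12.2% in either direction. Of 10 Schwann cell and nerve markers (of 11 listed) 7 were higher and 1, S100B, lower (80% in all). Their median log2 fold change was 3.02. Their sum was 584 to 970 CPM in intramuscular and 712 to 1557 CPM in subcutaneous fat, which overlapped and was held largely by S100B and PMP22. Of 10 progenitor markers 3 were lower (CD34, CLEC3B and CD248) and 0 higher, a share of 30%. Their sums were 10216 to 11376 CPM in intramuscular and 8734 to 18813 CPM in subcutaneous fat. The part of these cell types in the differences of CRY1, NR1D2 and CIART was not tested.

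The genes whose profile over the 10 libraries lay closest to a clock gene were found by the mean absolute difference of centred log2 CPM. For CRY1 these were TRAK2, RPS6KA3 and VPS13C, at 0.18, 0.21 and 0.21 (median of all genes 0.66). For NR1D1 they were ZNF521, TUT4 and FILIP1, at 0.25, 0.25 and 0.27 (median 0.74). For ARNTL they were SLC11A2, ACVR1 and SYTL2, at 0.12, 0.15 and 0.17 (median 0.57). No other clock gene was among the 3 closest to any of these 3. With only 3 genes kept out of all tested genes with a symbol, this does not show whether clock genes vary together.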

How the data were processed

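The authors deposited 1 table of raw counts per gene for 10 libraries. It also holds the authors' mean counts per depot, a deposited base mean (a size-factor-scaled signal), the deposited log2 fold change with its SE, a deposited Wald statistic (a score), and p-values with their adjusted values, as deposited by the authors. The submitters' processing notes name DESeq2 1.42.0, featureCounts 2.0.2, STAR 2.7.11a and Trimmomatic 0.39. They name neither a genome build nor a strand setting, and coordinates are those of the deposited table.

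Counts were fitted with edgeR 4.0.16 (quasi-likelihood, TMM scaling, filterByExpr by depot, two-sided) in R 4.3.3, with limma 3.58.1 voom and DESeq2 1.42.0 as alternatives. The filter removed 153 genes. Log2 CPM used a prior count of 2, and RPKM the deposited gene length. The fits were tested on simulated counts. The members and gene lists were chosen with earlier results of these data known. Named were all members, every gene of the other clock, glucocorticoid and immediate early lists past the threshold, those of 9 fixed transcription factors that have values (except 1, which is not reported here), and the 3 genes most like CRY1, NR1D1 and ARNTL. THRA, CA11, FKBP5, LPIN1, CDKN1A and KLF15 were chosen after their values were seen.

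Replicate numbers were taken as pairs because 5 heifers, per the design text, gave both kinds of fat. Deviations from depot means of same-numbered libraries correlated across genes at 0.102, 0.181, 0.176, 0.161 and 0.237. These values are low, but in all 5 pairs each library correlated best with the same-numbered library of the other depot. No 2 libraries were identical.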

Additional observations from a re-analysis of the deposited data

Results flagged for a closer look

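In 6 of 54 groups of 5 libraries (27 named genes, 2 depots) 1 library lay far from the other 4. The cut-off flags about 1 in 20 groups of independent, normally distributed values. CPM values need not be normal and the groups share the same 10 libraries, so 6 of 54 was not set against chance. NR1D2 stood at 2.18 CPM in subcutaneous replicate 5, where the next lowest library had 8.88 CPM. PPP1CA stood at 193 CPM in the same library, with 138 CPM next. Subcutaneous replicate 4 held BHLHE40 at 349 CPM (next 122 CPM) and BHLHE41 at 66.7 CPM (next 31.8 CPM). Subcutaneous replicate 1 held TSC22D3 at 361 CPM (next 188 CPM) and NR4A3 at 18.7 CPM (next 3.15 CPM). All 6 were subcutaneous libraries.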

How the results depend on the processing

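CRY1 and NR1D2 passed with either scaling, without a filter, by DESeq2, by limma voom and with the replicate block, so that 2 of 9 clock genes passed in the blocked fit too. By DESeq2 ARNTL passed as well (adjusted p = 0.0407). Without both intramuscular libraries 1 and 3 the clock genes called numbered 0, the other clock genes 4 and all genes 373. With 1 library left out they numbered 1 to 3, 5 to 11 and 757 to 1895. The other clock genes were 8 in the main test and 13 by DESeq2, which called 2482 genes in all. The replicate block called 7 other clock genes and 1884 genes in all, and among the genes named it ended the call of CIPC. It called 2 glucocorticoid response genes as higher in place of 1, and 4 immediate early genes in place of 3. By limma voom the calls of CIPC, EGR3 and NR4A3 were lost (adjusted p = 0.0530, 0.0688 and 0.0925). For differences between heifers 17 genes passed, 33 by limma voom and 3 to 14 with 1 heifer left out, and 0 clock genes in each of these. With library totals alone, which moved the median of all genes to 0.13, NPAS2 and TEF turned to 0.048 and 0.10. With 1 library left out NPAS2 ranged from -0.27 to 0.025, TEF from -0.17 to 0.055 and BHLHE41 from -0.37 to 0.13, none past the threshold. The cause of these changes was not tested. Where libraries were left out, the loss of samples and the traits of those libraries cannot be told apart. CLOCK was the clock gene with the fewest counts, 12 to 86 a library.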

Other observations

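Ratios of counts within a library do not depend on how libraries are scaled. These pairs of genes were chosen after their values were seen. NR1D2 over DBP was 0.357 to 0.627 in intramuscular and 0.040 to 0.238 in subcutaneous libraries, with no overlap. CRY1 over DBP was 0.632, 0.322, 0.663, 0.595 and 1.098 in intramuscular replicates 1 to 5, against 0.187, 0.149, 0.201, 0.366 and 0.191 in subcutaneous replicates 1 to 5, where 1 library of each depot crossed. NR1D2 over NR1D1, CRY1 over CRY2 and PER2 over PER1 overlapped between the depots. ARNTL over NR1D1 overlapped too, at 0.250 to 0.406 in intramuscular and 0.171 to 0.549 in subcutaneous libraries. In subcutaneous fat it was highest in heifers 4 and 5 (0.482 and 0.549), and so it was in intramuscular fat (0.406 and 0.397).

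Subcutaneous replicate 5 was the lowest subcutaneous library for 5 of the 9 clock genes (PER2, CRY1, CRY2, NR1D1 and NR1D2) and for 29.7% of all genes tested. Intramuscular replicate 5 was the lowest intramuscular library for 4 of the 9 (PER1, CRY2, NR1D2 and DBP) and for 18.1% of all genes tested. Without subcutaneous replicate 5 the log2 fold changes of CRY1 and NR1D2 were 0.95 and 1.21, both past the threshold (edgeR adjusted p = 0.0190 and 0.0239).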
